A study of Mus musculus with 31 samples.

Results

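Base excision repair removes single damaged or wrong bases from DNA, and the 10 genes described here were chosen by name as its first steps: the DNA glycosylases Ung, Tdg, Ogg1, Mutyh, Nthl1, Neil1, Neil2, Neil3 and Mpg, and the endonuclease Apex1. They are 10 of 46072 genes in the deposited tables. The set was proposed because Ung had been seen to fall more than 2-fold in RM-9 tumors 12 h after radiotherapy (RT), with the question of whether the other members follow. The values of RM-9 tumors at 12 h therefore chose the set and are given below as a description without a test.

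A DNA glycosylase recognises one kind of altered base and cuts it from its sugar, which leaves an abasic site. Apex1 then nicks the strand at that site, and a polymerase and a ligase fill and seal the gap. Ung removes uracil, Tdg removes thymine or uracil opposite guanine, Ogg1 removes 8-oxoguanine opposite cytosine, Mutyh removes adenine placed opposite 8-oxoguanine, Nthl1 and the Neil enzymes remove oxidised bases, and Mpg removes alkylated purines. Ionising radiation produces oxidised bases and abasic sites alongside strand breaks, so these enzymes act on part of the damage that RT causes.

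The libraries came from subcutaneous tumors of 2 transplanted mouse lines, RM-9 (prostate cancer) and MC-38 (colon cancer), grown on the right hind leg of male C57BL/6J mice to about 8 mm. Tumors received no treatment (control) or a single dose of 15 Gy, and irradiated tumors were taken 3 h, 12 h or 24 h later. There was 1 mRNA library per mouse, with 4 mice in every group except RM-9 RT 24 h, which had 3. The control mice of each model carried a 3 h time label and served all 3 RT times, so the 3 comparisons of a model share their controls. Each model is 1 cell line in 1 mouse strain, and every library is a mixture of tumor and host cells, in which fewer cells of a type and less RNA per cell cannot be told apart.

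Levels are in TPM, the share of a gene among all transcripts of a library after correction for length, and the depth estimated from the deposited coverage was 21.4 to 29.4 M reads (M, mega) per library. A single mitochondrial gene, mt-Nd4l, took 35.6% to 43.5% of all TPM in RM-9 and 12.9% to 29.6% in MC-38. The libraries of MC-38 control mouse 1 (mt-Nd4l at 29.6%, summed muscle markers at 10405 TPM) and MC-38 RT 24 h mouse 1 (muscle markers at 3504 TPM) stood apart from the rest of their groups. MC-38 RT 3 h mouse 2 came close to the latter, with muscle markers at 2898 TPM, but is not counted below among the libraries that stood apart. Keratins Krt8, Krt18 and Krt19 were high in RM-9 (Krt8 463 to 1069 TPM) and near 0 in MC-38 (Krt8 at most 0.20 TPM). The prostate marker Pbsn was listed at 0 in every RM-9 library, and the intestinal factor Cdx2 was listed at 0 in every MC-38 library and lay at 3.74 to 7.68 TPM in RM-9, so neither label was borne out by these markers.

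The promoters of Ung and Neil3 are shown because these 2 members had the lowest and the highest log2 fold change of the set in MC-38 at 12 h. The RefSeq sequences (GRCm38.p6) are given 5′ to 3′ on the strand of the gene and end at the base before the gene start of the deposited tables. Ung lies on chromosome 5 (plus strand, gene 114130386 to 114139323, promoter chr5:114130185-114130385) and Neil3 on chromosome 8 (minus strand, gene 53586867 to 53639065, promoter chr8:53639066-53639315). Capitals mark matches on either strand to 4 motifs: an E2F site (TTTGGCGC, TTTGCCGC, TTTCGCGC or TTTCCCGC), the cell cycle element CHR (TTTGAA or TTCGAA), the CCAAT box (CCAAT) and the GC box (GGGCGG).
Ung: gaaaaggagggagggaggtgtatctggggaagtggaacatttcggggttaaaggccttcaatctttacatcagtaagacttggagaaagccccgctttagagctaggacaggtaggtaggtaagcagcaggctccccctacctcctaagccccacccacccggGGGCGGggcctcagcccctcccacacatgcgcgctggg
Neil3: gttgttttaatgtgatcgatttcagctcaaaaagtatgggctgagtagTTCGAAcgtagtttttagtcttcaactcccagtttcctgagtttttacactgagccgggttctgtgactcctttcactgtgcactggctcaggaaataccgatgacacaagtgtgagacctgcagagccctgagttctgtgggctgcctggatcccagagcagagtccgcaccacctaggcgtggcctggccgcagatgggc
The Ung stretch held 1 GC box, close to the gene start, and the Neil3 stretch held 1 CHR near its 5′ end. Over the 250 bases upstream of the RefSeq starts of the 9 members with an entry, an E2F match was found in 1 (Nthl1), a CHR in 2 (Apex1 and Neil3), a CCAAT box in 6 and a GC box in 6. The same searches matched 1.86%, 17.1%, 33.8% and 32.7% of 32851 promoters. A match describes letters only, and none of the 4 motifs was shared by Ung and Neil3.

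Apex1 had the highest control level in both models, 105 ± 19.2 TPM (SD, n = 4) in RM-9 and 128 ± 27.4 TPM (SD, n = 4) in MC-38. Neil2 was close to absent, at 0 to 0.113 TPM in RM-9 and 0 to 0.212 TPM in MC-38, which corresponds to an estimated 0 to 21 reads per library. It did not pass the filter on mean TPM, so 9 of the 10 members were tested. The order of the others depends on the scale, because the deposited TPM of a gene and its read coverage per exon length differed by a gene-specific factor, from 1.00 for Nthl1 to 4.87 for Tdg and 7.27 for Neil3. In RM-9 controls Tdg (19.9 ± 2.27 TPM) stood above Ogg1 (12.96 ± 0.419 TPM) in TPM, whereas in coverage (reads per kb of exon per M reads) Ogg1 at 11.6 stood above Tdg at 5.10.

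Control levels of 5 of the 9 members that passed the filter lay higher in all 4 MC-38 controls than in any RM-9 control, as did 50.9% of all genes, so this share is that of the background. Neil3 differed most, with 21.2 ± 7.33 TPM in MC-38 against 2.32 ± 0.706 TPM in RM-9, a ratio of 9.17 in TPM and 6.47 in coverage. The ratio in TPM was 6.04 for Mutyh, 3.50 for Neil1, 2.28 for Nthl1 and 2.21 for Ung, and in coverage it was 3.82, 2.31, 1.64 and 1.51 in the same order. Ogg1, Tdg, Mpg, Apex1 and Neil2 overlapped between the models. These level differences between 2 cell lines were not tested.

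In RM-9 tumors, Ung stood at 7.52, 6.63, 6.81 and 9.87 TPM in the controls and at 2.40, 3.19, 3.91 and 2.87 TPM at 12 h, the values that chose the set. The mean fell from 7.70 to 3.09 TPM, a ratio of 2.49, and in coverage it fell from 3.37 to 1.54 reads per kb per M reads. No other member passed 2-fold: Apex1 came next at 1.74-fold (105 to 60.3 TPM) and Ogg1 followed at 1.28-fold (12.96 to 10.1 TPM). Apex1 stood at 107, 107, 79.4 and 126 TPM in the controls and at 53.8, 59.1, 68.0 and 60.2 TPM at 12 h. In all 3 genes every irradiated tumor lay below every control, as in 19.4% of all genes.

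On the log2(TPM + 0.5) scale the difference at 12 h in RM-9 was -1.19 for Ung, -0.78 for Apex1 and -0.34 for Ogg1. The other 6 lay between -0.31 (Mutyh) and 0.10 (Neil1), and the median over 9 members was -0.27 beside -0.19 over all genes. With the libraries scaled by median ratios, which removes the shift of all genes, Ung was -1.001, Apex1 -0.56 and Ogg1 -0.13.

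**Figure D1:**
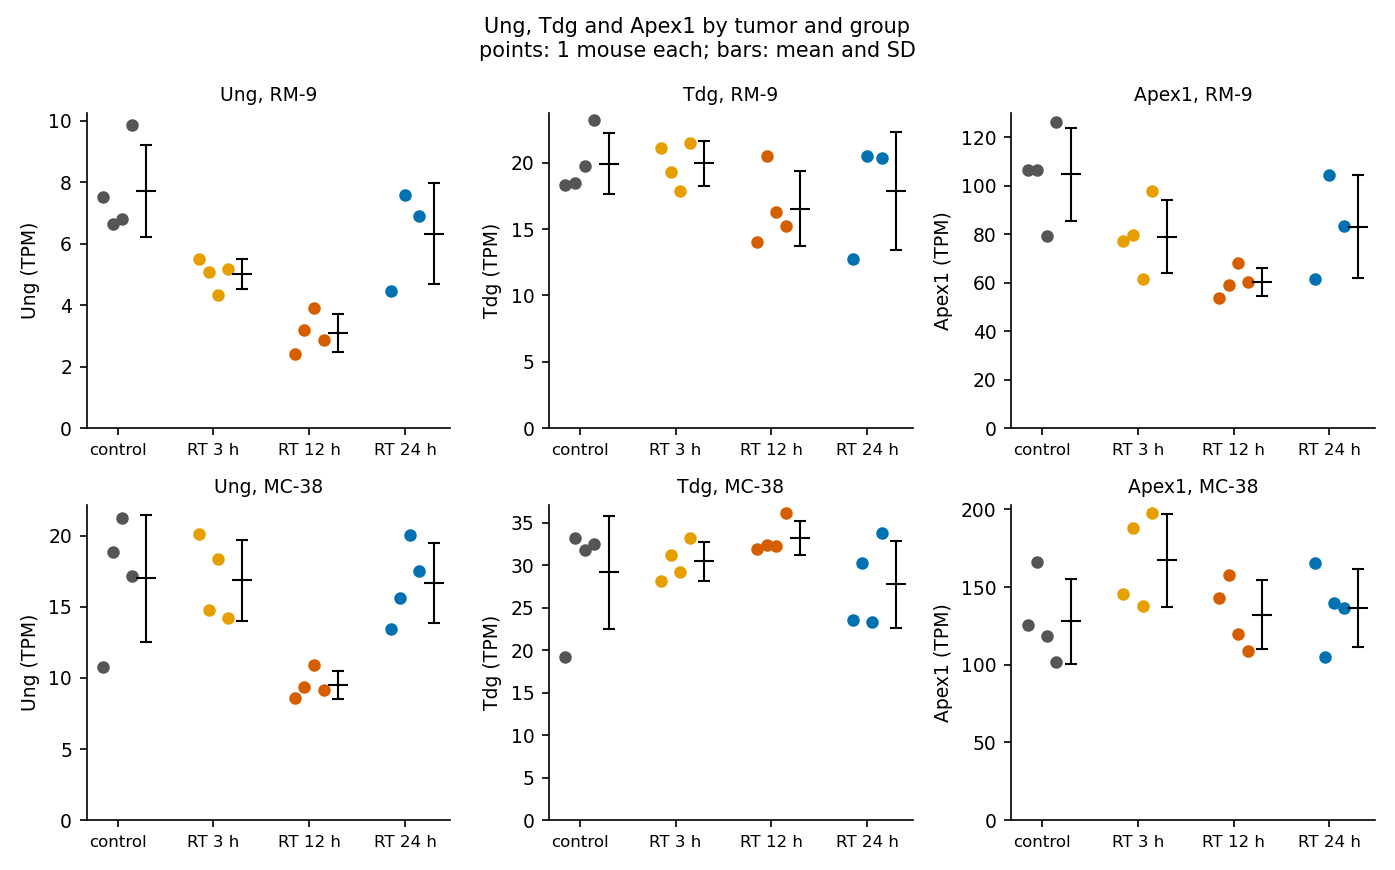
TPM of Ung, Tdg and Apex1 (y axes, linear and from 0) in RM-9 (upper row) and MC-38 (lower row) by group, with 1 point per mouse and the mean and SD beside the points. Ung lies lowest at RT 12 h in both models, at 2.40 to 3.91 TPM in RM-9 and 8.58 to 10.9 TPM in MC-38, and Apex1 in RM-9 at 12 h lies at 53.8 to 68.0 TPM, below every control.

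At 3 h in RM-9 the 4 irradiated tumors had Ung at 5.50, 5.07, 4.33 and 5.17 TPM. All 4 lay below all 4 controls, as 2.87% of all genes did at this time. The log2 fold change was -0.56 ± 0.17 (SE), and it did not pass correction over all genes (limma, adjusted p = 0.120). With median-ratio scaling the adjusted p of limma was 0.0282, and 166 of 14013 genes were called lower and 241 higher under that scaling. The 4 controls in these RM-9 fits are those whose Ung level against 12 h chose the gene, so the values at 3 h and 24 h are not independent of that choice. At 24 h the 3 tumors stood at 4.46, 7.58 and 6.91 TPM and overlapped the controls (-0.28 ± 0.18, limma adjusted p = 0.999).

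MC-38 tumors were not used to choose the set, and Ung fell in them too at 12 h. Controls stood at 10.8, 18.8, 21.3 and 17.1 TPM, and tumors at 12 h at 8.58, 9.36, 10.9 and 9.12 TPM. Control mouse 1, whose library stood apart, lay within the range of the irradiated tumors, and the other 3 controls lay above every one of them. The log2 fold change was -0.77 ± 0.19 (SE), with an adjusted p of 0.0144 (limma), among 2.59% of all genes that were lower. In coverage the mean went from 5.10 to 2.52 reads per kb per M reads. Without control mouse 1 it was -0.97 with an adjusted p of 0.0063, and with median-ratio scaling -1.11 with 0.0012. Fitted on these 2 groups alone the adjusted p was 0.0505, and the exact two-sided permutation test of mean TPM gave p = 0.0571 (0.168 after adjustment over the 50 such tests made).

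At the other times in MC-38 Ung did not pass the test. At 3 h the tumors had 20.1, 14.8, 18.4 and 14.2 TPM and at 24 h 13.4, 15.6, 20.1 and 17.5 TPM, both groups within the range of the controls. Their log2 fold changes were 0.02 ± 0.19 (limma adjusted p = 0.966) and -0.00036 ± 0.19 (limma adjusted p = 0.999). Set directly against 12 h, a comparison added after these values were seen, Ung at 24 h was higher by 0.77 ± 0.19 (limma adjusted p = 0.0490), among 1.39% of all genes that were higher (1.68% in all). All 4 tumors at 24 h lay above all 4 at 12 h, as in 4.95% of all genes. That call lay at the threshold: leaving out 1 mouse at a time moved the adjusted p between 0.0448 and 0.154. Over all 19 alternative fits the limma adjusted p ranged from 0.0029 (median-ratio scaling) to 0.154, and 10 of them passed.

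Summed markers of some cell types were lower at 12 h, as Ung was, and those of others were not. In MC-38 neutrophil markers summed to 24.5 to 36.3 TPM in controls and 30.3 to 47.2 at 12 h. Fibroblast markers there summed to 578 to 972 TPM in controls and 367 to 866 at 12 h. In MC-38 the summed TPM of 8 macrophage markers was 815 to 1307 in controls and 294 to 706 at 12 h. Of the 8, 5 were lower and none higher (limma), beside 2.59% of all genes lower and 28.5% higher. The complement gene C1qb at -1.56 and the growth factor receptor gene Csf1r at -1.32 led. At 24 h the macrophage sum was 651 to 813, again below every control, in tumors whose Ung lay within the range of the controls, and at 3 h it was 565 to 893. In RM-9 the macrophage sum was 378 to 595 in controls, 265 to 404 at 3 h, 186 to 368 at 12 h and 447 to 559 at 24 h. At 12 h in RM-9 19.4% of all genes lay below every control. T cell markers summed to 25.5 to 38.6 TPM in MC-38 controls, 14.1 to 27.6 at 12 h and 12.0 to 23.8 at 24 h. In RM-9 they summed to 8.09 to 14.3 TPM in controls and 2.53 to 6.91 at 12 h. Epithelial markers summed to 1155 to 1395 TPM in RM-9 controls and 669 to 1137 at 12 h, and were at most 1.56 TPM at 12 h in MC-38. The part of these cell types in the fall of Ung was not tested.

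None of the other enzymes for uracil or thymine was lower in MC-38 at 12 h by the test. Tdg (chromosome 10, 82629828 to 82650799, plus strand) had 19.2 to 33.2 TPM in MC-38 controls and 31.9 to 36.2 TPM at 12 h (0.21 ± 0.16, limma adjusted p = 0.289), and in RM-9 it had 18.3 to 23.2 TPM in controls and 14.1 to 20.5 TPM at 12 h. Smug1, a uracil glycosylase that is no member, was 6.23 ± 1.53 TPM in MC-38 controls and 8.43 ± 0.551 TPM at 12 h (0.44 ± 0.17, limma adjusted p = 0.0648). Mbd4, which removes thymine at mismatched CpG sites, rose in MC-38 at 12 h from 5.26 ± 1.82 to 8.64 ± 0.661 TPM (0.72 ± 0.22, limma adjusted p = 0.0257), a call that was lost with median-ratio scaling. In RM-9 at 12 h Smug1 was at -0.09 and Mbd4 at -0.13. Dut, which keeps uracil out of DNA by clearing dUTP, stood at 109 to 183 TPM in MC-38 controls and 151 to 190 TPM at 12 h.

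**Figure D2:**
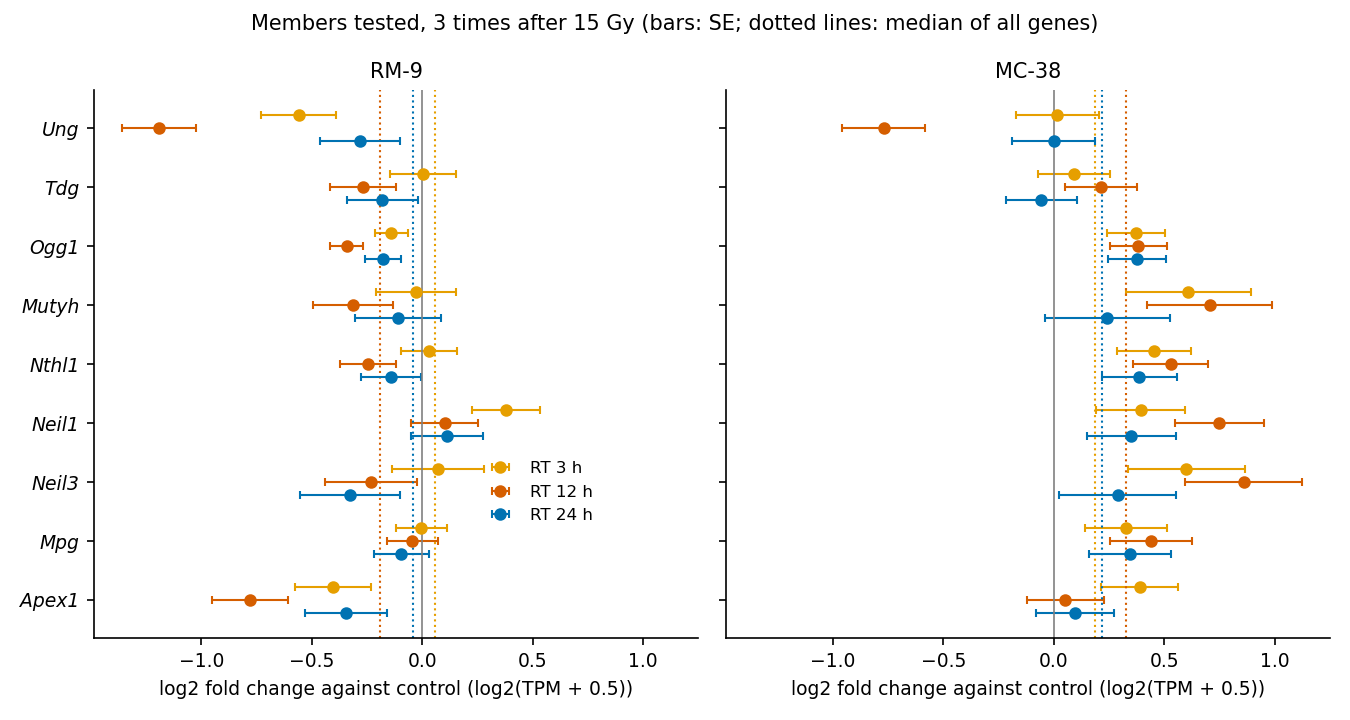
Log2 fold change against control (x axis, log2 of TPM plus 0.5) of the 9 members tested, with SE bars, for the 3 RT times in RM-9 (left) and MC-38 (right); dotted lines mark the median of all genes at each time. Ung at 12 h lies furthest to the left in both models, at -1.19 and -0.77, while Neil3 and Neil1 lie furthest to the right in MC-38 at 12 h.

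Several glycosylases for oxidised bases took the opposite direction from Ung in MC-38 at 12 h. Of the 9 members tested, 4 rose (Neil3, Neil1, Nthl1 and Ogg1) and Ung fell, beside 28.5% of all genes that rose and 2.59% that fell (31.1% in all; limma). In limma Neil3 rose by 0.86 ± 0.27 (adjusted p = 0.0283), Neil1 by 0.75 ± 0.20 (0.0192), Nthl1 by 0.53 ± 0.17 (0.0317) and Ogg1 by 0.38 ± 0.13 (0.0387). The median over the 9 members was 0.44 beside 0.33 over all genes. Irradiated tumors lay above every control for these 4 genes, as they did for 34.5% of all genes. Relative to the shift of all genes the rises were smaller: with median-ratio scaling before limma Neil3 was at 0.51 (adjusted p = 0.0723), Neil1 at 0.43 (0.0407), Nthl1 at 0.19 and Ogg1 at 0.04, which left 1 member higher, Neil1, and 1 lower, Ung, beside 6.37% of all genes higher and 10.1% lower under that scaling.

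**Figure D3:**
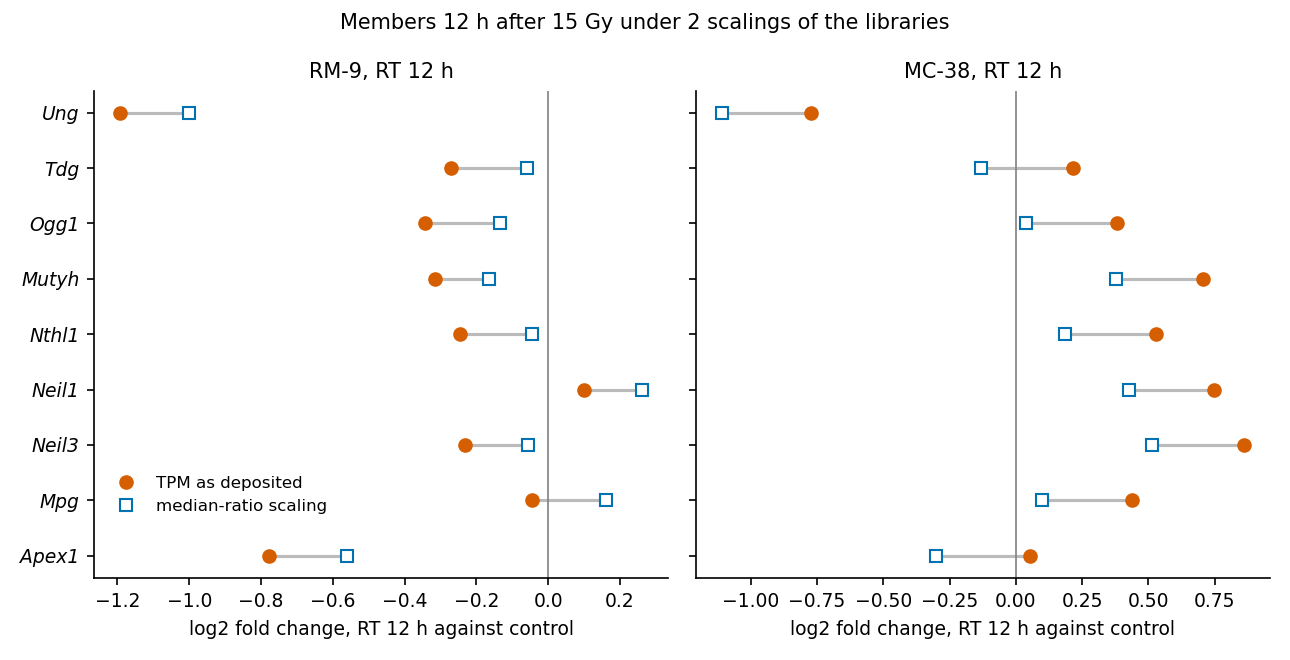
Log2 fold change at 12 h against control of the 9 members in RM-9 and MC-38, with TPM as deposited and after median-ratio scaling. Ung stays lowest under both scalings (-1.19 and -1.001 in RM-9, -0.77 and -1.11 in MC-38), while Ogg1 in MC-38 moves from 0.38 to 0.04.

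Neil3, which acts on oxidised bases and on crosslinks in replicating DNA, stood at 11.4, 24.9, 28.3 and 20.4 TPM in MC-38 controls and at 37.4, 34.5, 34.7 and 41.6 TPM at 12 h. Control mouse 1 was the lowest, and every tumor at 12 h lay above every control. Neil3 (chromosome 8) rests on an estimated 35 to 542 reads per library. At 3 h the tumors had 30.5, 25.5, 33.0 and 34.9 TPM (0.60 ± 0.27, limma adjusted p = 0.233) and at 24 h 13.9, 33.8, 25.2 and 31.3 TPM (0.29 ± 0.27, limma adjusted p = 0.481). In RM-9 Neil3 had 1.78 to 3.28 TPM in controls and 1.40 to 3.55 TPM after RT, and every group overlapped the controls.

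Neil1 (chromosome 9, 57142800 to 57148305, minus strand), which removes oxidised pyrimidines, was 3.46, 5.55, 6.04 and 4.43 TPM in MC-38 controls and 7.45, 8.40, 8.09 and 9.60 TPM at 12 h. At 3 h it was 5.71, 5.18, 7.59 and 7.52 TPM (0.39 ± 0.20, limma adjusted p = 0.276) and at 24 h 4.00, 6.99, 7.10 and 7.46 TPM (0.35 ± 0.20, limma adjusted p = 0.251), so both groups overlapped the controls. In RM-9 it was highest at 3 h, with 1.82, 2.13, 2.04 and 1.83 TPM against 1.25, 1.26, 1.72 and 1.34 TPM in controls. All 4 irradiated tumors lay above the controls there, as 9.88% of all genes did, and the difference of 0.38 ± 0.15 did not pass correction (limma adjusted p = 0.175). Neil1 in RM-9 rests on an estimated 59 to 110 reads per library.

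Nthl1 (chromosome 17, 24632682 to 24638838, plus strand), which removes oxidised pyrimidines, rose in MC-38 from 11.02, 17.8, 17.7 and 13.6 TPM to 23.6, 20.4, 20.6 and 21.6 TPM at 12 h. It already lay above all controls at 3 h, at 18.1 to 23.1 TPM (0.45 ± 0.17, limma adjusted p = 0.184), as did 7.20% of all genes. In RM-9 it stayed between 4.51 and 7.85 TPM in all 15 libraries. At 24 h in MC-38 Nthl1 was 13.9, 21.03, 23.7 and 20.7 TPM (0.39 ± 0.17, limma adjusted p = 0.133). Mutyh (chromosome 4, 116807723 to 116819440, plus strand), which acts opposite 8-oxoguanine, did not pass in MC-38, at 3.71 to 11.7 TPM in controls and 11.5 to 14.5 TPM at 12 h (0.71 ± 0.28, limma adjusted p = 0.0654). In RM-9 Mutyh was 0.778 to 1.97 TPM throughout.

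The calls of the 4 rises in MC-38 did not hold when single mice were left out. Of 8 such fits, Neil1 passed in 5 and Neil3, Nthl1 and Ogg1 in 2 each (without control mouse 2 or 3), whereas Ung passed in all 8. Neil3, Nthl1 and Ogg1 lost the call without control mouse 1, control mouse 4 or any 1 of the RT 12 h mice, and Neil1 lost it without control mouse 1 or RT 12 h mouse 2 or 4. Without control mouse 1, Neil3 was 0.59 (limma adjusted p = 0.0948), Neil1 0.61 (0.0566), Nthl1 0.39 (0.101) and Ogg1 0.27 (0.112). With RT 24 h mouse 1 removed as well the folds were the same and the adjusted p (limma) was 0.0176, 0.0204, 0.0345 and 0.0702 in the same order. Read coverage scaled to depth in place of TPM gave, in the same order and test, 0.0689, 0.0999, 0.148 and 0.277.

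**Figure D4:**
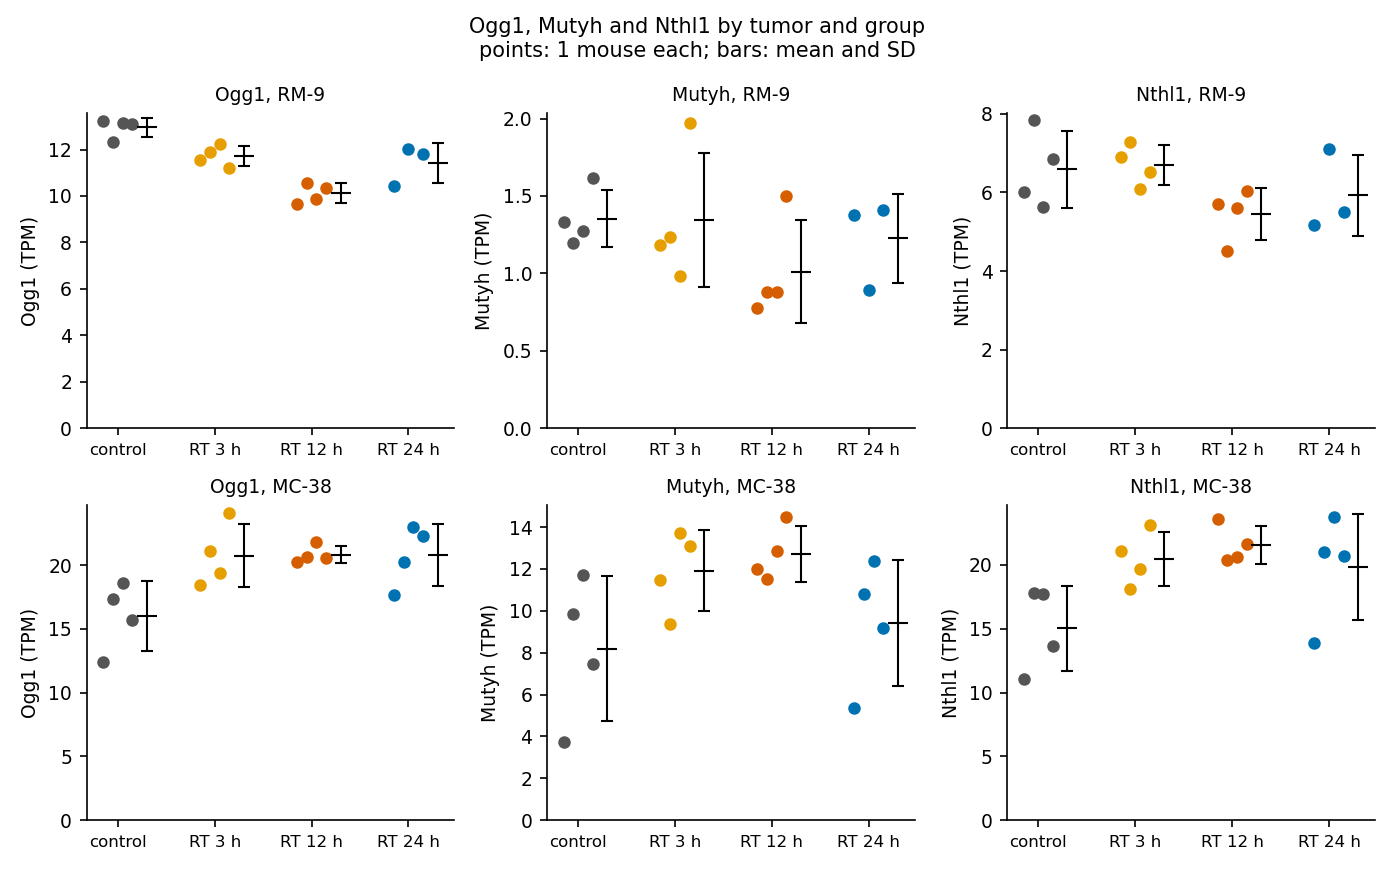
TPM of Ogg1, Mutyh and Nthl1 (y axes, linear and from 0) in RM-9 (upper row) and MC-38 (lower row) by group, with 1 point per mouse and the mean and SD beside the points. Ogg1 lies below its controls in RM-9 at 12 h (9.65 to 10.6 TPM) and above them in MC-38 at 12 h (20.3 to 21.8 TPM).

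**Figure D5:**
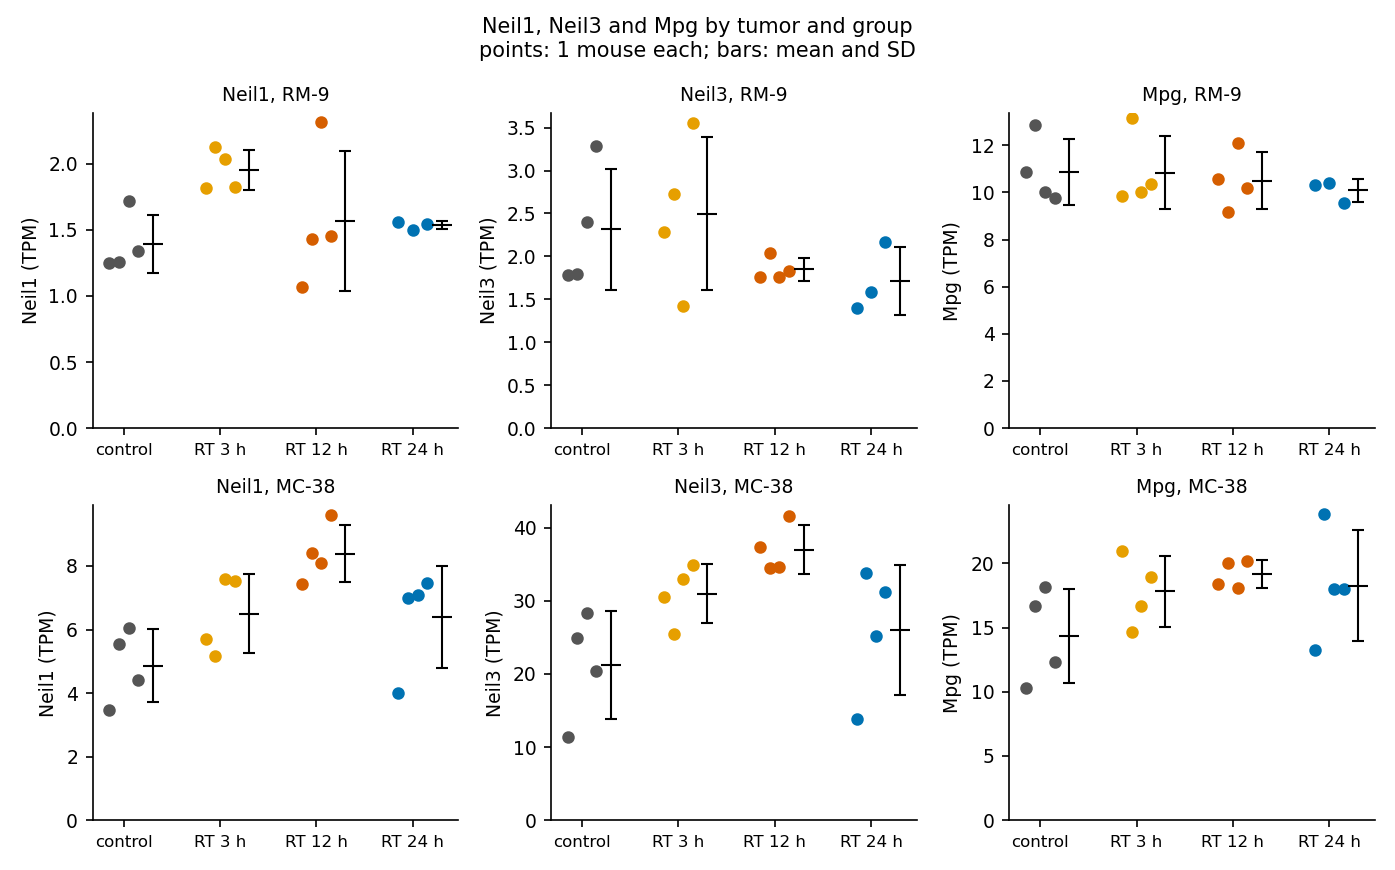
TPM of Neil1, Neil3 and Mpg (y axes, linear and from 0) in RM-9 (upper row) and MC-38 (lower row) by group, with 1 point per mouse and the mean and SD beside the points. Neil3 reaches 34.5 to 41.6 TPM in MC-38 at 12 h and stays at or below 3.55 TPM in every RM-9 library.

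Ogg1 (chromosome 6, 113326972 to 113335068, plus strand), the enzyme for 8-oxoguanine, lay below its controls in RM-9 and above them in MC-38 at 12 h. In RM-9 it was tightly grouped, at 13.2, 12.3, 13.1 and 13.1 TPM in controls, 11.2 to 12.2 TPM at 3 h, 9.65 to 10.6 TPM at 12 h and 10.4 to 12.0 TPM at 24 h. Every irradiated RM-9 tumor lay below every control, which held for 2.24% of all genes at 24 h, but the differences at 3 h (-0.14 ± 0.07, limma adjusted p = 0.272) and 24 h (-0.18 ± 0.08, limma adjusted p = 0.999) did not pass correction. In coverage the RM-9 mean went from 11.6 to 10.5 reads per kb per M reads at 12 h. In MC-38 it had 12.4, 17.4, 18.6 and 15.7 TPM in controls and 20.3, 20.6, 21.8 and 20.6 TPM at 12 h. There 34.5% of all genes lay above every control at 12 h. At 3 h the MC-38 tumors had 18.4, 21.1, 19.4 and 24.1 TPM (0.37 ± 0.13, limma adjusted p = 0.173), and at 24 h they had 17.6, 20.3, 23.0 and 22.3 TPM. At 24 h the MC-38 change was 0.38 ± 0.13 (limma adjusted p = 0.0665). The difference between the models at 24 h, MC-38 minus RM-9, was 0.55 ± 0.15 with an adjusted p of 0.0506 (limma), and 0.29 with 0.131 under median-ratio scaling. Exons of Camk1 on the other strand cover 10.6% of the exon bases of Ogg1, and the strand setting of the quantification is not given in the sources used here.

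Mpg (chromosome 11, 32226505 to 32232700, plus strand), the glycosylase for alkylated purines, was 10.3 to 18.1 TPM in MC-38 controls and 18.1 to 20.2 TPM at 12 h (0.44 ± 0.19, limma adjusted p = 0.0765), and 9.17 to 13.2 TPM in all RM-9 libraries. Exons of Nprl3 on the other strand cover 35.7% of its exon bases.

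Apex1 (chromosome 14, 50924968 to 50927139, plus strand), which acts on the abasic sites that glycosylases leave, did not pass the test in MC-38 at 12 h, with 126, 166, 119 and 102 TPM in controls and 143, 158, 120 and 109 TPM at 12 h (0.05 ± 0.18, limma adjusted p = 0.822). In RM-9 at 3 h it had 77.2, 79.5, 61.4 and 97.9 TPM against 79.4 to 126 TPM in controls (-0.40 ± 0.17, limma adjusted p = 0.191). In MC-38 at 3 h it stood at 145, 188, 138 and 198 TPM (0.39 ± 0.18, limma adjusted p = 0.237), overlapping the controls. At 24 h in RM-9 it was 61.5, 104 and 83.5 TPM. Exons of Pip4p1 on the other strand cover 61.7% of the exon bases of Apex1.

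Neil2 (chromosome 14, 63182443 to 63193541, minus strand), another glycosylase for oxidised bases, was listed at 0.0799, 0.212, 0.120 and 0.0702 TPM in MC-38 controls and at 0 in all 4 tumors at 12 h and in 3 of 4 at 3 h. At an estimated 21 reads or fewer per library the level is too low to give a fold.

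In the remaining comparisons no member was called by limma. In RM-9 at 3 h 0 of 9 passed (3 at an unadjusted p under 0.05, namely Ung, Neil1 and Apex1), beside 0.228% of all genes, and at 24 h 0 of 9 (1 unadjusted, Ogg1), beside 0% of all genes. In MC-38 at 3 h 0 of 9 passed (5 unadjusted: Ogg1, Nthl1, Neil3, Apex1 and Mutyh), beside 0.0637% of all genes, and at 24 h 0 of 9 (2 unadjusted, Ogg1 and Nthl1), beside 13.8% of all genes. For the difference between the models 0 of 9 passed at 3 h (3 unadjusted) beside 0% of all genes, and 0 of 9 at 24 h (2 unadjusted) beside 1.81% of all genes. For Ung that difference at 3 h, MC-38 minus RM-9, was 0.58 ± 0.26 (limma adjusted p = 0.479).

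The steps after base removal were followed in 28 genes for end processing, gap filling and ligation. In MC-38 at 12 h 13 of 28 were higher and none lower, with a median of 0.37 beside 0.33 over all genes, led by the polymerase epsilon subunit Pole (0.82 ± 0.20, limma adjusted p = 0.0141), the clamp loader subunit Rfc1 (0.60 ± 0.16, 0.0188) and the break sensor Parp1 (0.58 ± 0.12, 0.0106). With median-ratio scaling 2 were higher and none lower. Of all genes 28.5% were higher and 2.59% lower at this time, and 6.37% and 10.1% with that scaling. In MC-38 at 24 h 7 were higher, led by Pole (0.82), Rfc3 (0.64) and the ligase gene Lig1 (0.57), and with median-ratio scaling 5 were higher and 2 lower. Of all genes 13.8% were called at 24 h, and with that scaling 1245 of 15698 were higher and 1278 lower. The change at 24 h was larger in MC-38 than in RM-9 for Pole (by 1.09, limma adjusted p = 0.0388), Lig1 (0.94, 0.0375) and Rfc3 (0.84, 0.0406). Of all genes 1.81% were called in that comparison. In RM-9 none passed at 3 h or 24 h. At 12 h 8 of the 28 were lower in RM-9, beside 8.30% of all genes that were lower (8.37% called in all). Lig1 (-0.77), Pcna (-0.57) and Pole (-0.57) led. With median-ratio scaling none passed, beside 6 of 14013 genes lower and 10 higher under that scaling. These RM-9 counts at 12 h come from the contrast that chose the set and are given as a description.

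Genes of DNA replication were set beside Ung because uracil enters DNA during its copying. Of 30 S phase genes 14 were higher and none lower in MC-38 at 12 h as deposited, and 2 were higher and 2 lower with median-ratio scaling. Of all genes 28.5% were higher and 2.59% lower at 12 h as deposited, and 6.37% and 10.1% with that scaling. At 24 h 20 were higher and none lower, and 15 were higher and 1 lower with that scaling. Of all genes 13.8% were called at 24 h, and with that scaling 1245 of 15698 were higher and 1278 lower. Of 20 genes of G2 and mitosis 12 were higher at 12 h, led by the mitotic kinase gene Aurkb (0.81), and 2 with that scaling. In RM-9 at 12 h 13 of the 30 S phase genes were lower, beside 8.30% of all genes, led by the helicase genes Mcm6 and Mcm3 (both -0.77). With median-ratio scaling 0 were lower, beside 6 of 14013 genes lower and 10 higher under that scaling. These RM-9 counts are a description from the contrast that chose the set. Of 14 p53 target genes 6 were higher in RM-9 and 3 in MC-38 at 3 h, led in both by Trp53inp1 (1.72 and 1.44). Of all genes 0.228% and 0.0637% were called in these 2 comparisons. Of 7 genes for the nucleotide pool and direct base repair, Alkbh2 was higher in MC-38 at 12 h (0.40) and at 24 h (0.52), and Samhd1 at 24 h (0.66).

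The genes whose level was most like that of Ung differed between the models. Across the 15 RM-9 libraries the RNA helicase gene Ddx18 came first (Pearson r = 0.95 on scaled log2 TPM, of 8705 genes), followed by Gm5837, Gm4204, Hspd1-ps3 and Gm5611 (r 0.88 to 0.89). Across the 16 MC-38 libraries they were the myeloid factor gene Spi1 (r = 0.89), Rps27, Tmco1, Hmha1 and the Fc receptor subunit gene Fcer1g (0.87). Looked up in the other model, Ddx18 had r = -0.0014 and Spi1 r = 0.43. For Neil3 in MC-38 the 5 were Fanca (r = 0.95), a gene of crosslink repair, Suv420h2, 9430015G10Rik, B230354K17Rik and Cep152, and in RM-9 Rtel1 (r = 0.92), Dsn1, Lrch4, Cntrl and Zfp280d. Rtel1, a helicase gene, had r = 0.94 with Neil3 in MC-38 as well. These r values describe libraries that share treatment groups. The RM-9 libraries include the controls and 12 h tumors whose Ung values chose the set, so every r with Ung in RM-9 is a description only.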

How the data were processed

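Per the labels, mRNA from each tumor was sequenced on a NextSeq instrument from stranded TruSeq libraries with single reads of 75 bases. The authors deposited, per library, a gene table with coverage, FPKM (fragments per kb of transcript, scaled to depth) and TPM. The deposited TPM (a gene's share of all transcripts after correction for length) were used for levels and tests, and the deposited coverage and FPKM for an estimate of depth. The submitters' processing notes name bcl2fastq 2.17 and the build GRCm39, but the coordinates in the tables follow GRCm38: of 45137 genes shared with GENCODE M21, 100% shared the chromosome and 91.1% shared a gene start or end. The aligner and the quantifier are not given in the sources used here.

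Rows that repeat a gene were summed. Each RT time was compared with the control within a model by limma 3.58.1 (R 4.3.3) on log2(TPM + 0.5), with the 4 groups in one fit, an intensity trend, a minimum mean TPM of 0.5 (14013 genes in RM-9, 15698 in MC-38) and Benjamini-Hochberg adjustment over all of them at 0.05. Fold changes are on that log2 scale, which understates changes of low genes. Differences between the models were fitted over all 31 libraries (15358 genes) at 3 h and 24 h. Exact two-sided permutation tests compared mean TPM in 50 cases (adjusted over them) with numpy 2.4.6, and figures used matplotlib 3.10.9. With 4 against 4 mice the smallest p is 0.0286. The limma script was checked on simulated data.

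The members, lists and tests were chosen with earlier results of these data known. Named genes are all 10 members, Smug1 and Mbd4, up to 3 called genes in each direction of each other list, and the 5 genes most correlated with Ung and Neil3 in each model among genes with mean TPM from 5 upward. Dut was named after its values were seen. The 24 h against 12 h comparison, coverage scaled to equal reads and the removal of both libraries that stand apart were added after the data were seen. The other alternatives were the pseudocount, median-ratio scaling, removal of 37 mitochondrially encoded genes, the filter, the trend, the samples in the fit, a replicate block and leaving out each mouse.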

Additional observations from a re-analysis of the deposited data

Results flagged for a closer look

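In 69 groups of 4 mice tested for a lone value, 8 were singled out, where chance gives about 1 in 20. Ogg1 in RM-9 control mouse 2 was 12.3 TPM, the lowest of a tight group. Mutyh in RM-9 RT 12 h mouse 4 was 1.503 TPM, the highest of its group, and Mpg in RM-9 RT 3 h mouse 2 was 13.2 TPM, likewise the highest. Tdg in MC-38 control mouse 1 was 19.2 TPM and Neil1 in MC-38 RT 24 h mouse 1 was 4.00 TPM, each the lowest of its group and each from a library that stood apart by its muscle markers. Tdg in MC-38 RT 12 h mouse 4 was 36.2 TPM, the highest of its group. Neil2 was 0 TPM in RM-9 RT 3 h mouse 3 and 0.0532 TPM in MC-38 RT 3 h mouse 2, at a depth of a few reads.

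The log2 fold change of Ogg1 at 12 h differed between the models by 0.73 (MC-38 minus RM-9). Every irradiated mouse lay below the controls in RM-9, as in 19.4% of all genes, and above them in MC-38, as in 34.5%. The median over all genes was -0.19 in RM-9 and 0.33 in MC-38. With median-ratio scaling, which removes that shift, Ogg1 was -0.13 in RM-9 and 0.04 in MC-38. The difference was not tested at 12 h, because the RM-9 values at that time chose the genes.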

How the results depend on the processing

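RM-9 at 12 h, a description, is left out of the counts that follow. Over 64 results and 1298 alternative fits, 82 fits in 19 results had the opposite direction (none with an absolute log2 value over 0.24 as reported), 45 calls were lost and 22 gained. The count of called members in MC-38 at 12 h, 5 as reported (4 higher, 1 lower), was 2 with median-ratio scaling (1 higher, 1 lower). Without a filter, which lets in Neil2, it was 3 (1 higher and 2 lower, namely Ung and Neil2, the latter too low to give a fold). It was 1 higher with only both compared groups in the fit, 1 lower with coverage, and 1 to 7 when leaving out 1 mouse. In RM-9 at 3 h it was 1 lower with coverage. It was also 1 lower there with median-ratio scaling, beside 166 of 14013 genes lower and 241 higher. In MC-38 at 24 h it was 1 lower with median-ratio scaling (Tdg at -0.32, limma adjusted p = 0.0415). It was 1 higher without mitochondrially encoded genes, with the replicate block and without both libraries that stand apart, and 0 to 2 when leaving out 1 mouse. For the difference between the models at 24 h it was 1 with a pseudocount of 1, without mitochondrially encoded genes, with no filter, with a minimum mean TPM of 5, with the replicate block and without both libraries, and 0 to 1 when leaving out 1 mouse. The causes were not tested.

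In RM-9 at 12 h, not counted above, Mpg was lower as deposited (RT mean at 96.6% of control) and at 0.16 with median-ratio scaling. In the other comparisons these log2 fold changes reversed. With median-ratio scaling: Nthl1 -0.032 and Tdg -0.063 in RM-9 at 3 h, Ung -0.20 and Tdg -0.13 in MC-38 at 3 h, Tdg -0.13 and Apex1 -0.30 in MC-38 at 12 h, Mutyh -0.0029 and Apex1 -0.17 in MC-38 at 24 h, and, between the models, Neil1 -0.14 and Tdg -0.041 at 3 h and Neil1 -0.014 and Tdg -0.14 at 24 h. With coverage: Nthl1 -0.013 and Tdg -0.031 in RM-9 at 3 h, Ung -0.069 and Tdg -0.066 in MC-38 at 3 h, Tdg -0.032 and Apex1 -0.25 at 12 h, Apex1 -0.10 at 24 h, and between the models Tdg -0.036 at 3 h, Neil1 -0.034 and Tdg -0.065 at 24 h. Without mitochondrially encoded genes: Ung -0.067 in MC-38 at 3 h, Apex1 -0.086 at 12 h and -0.010 at 24 h, and between the models Neil1 -0.11 at 3 h and Tdg -0.011 at 24 h. Without both libraries that stand apart: Ung -0.18 and Tdg -0.094 in MC-38 at 3 h, Apex1 -0.0051 at 24 h, and between the models Neil1 -0.12 and Tdg -0.097 at 3 h. With a pseudocount of 0.1: Ung 0.00046 in MC-38 at 24 h and Neil1 -0.046 between the models at 3 h.

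Leaving out 1 mouse moved the following values across 0. In RM-9 at 12 h, the description, Mpg ranged from -0.11 to 0.034 and Neil1 from -0.059 to 0.22. In RM-9 at 3 h Mpg ranged from -0.097 to 0.075, Mutyh from -0.18 to 0.066, Neil3 from -0.091 to 0.27, Nthl1 from -0.036 to 0.11 and Tdg from -0.034 to 0.076. In RM-9 at 24 h Mutyh ranged from -0.19 to 0.035 and Tdg from -0.29 to 0.040. In MC-38 Ung ranged from -0.18 to 0.13 at 3 h and from -0.20 to 0.12 at 24 h, Tdg from -0.094 to 0.16 at 3 h and from -0.24 to 0.019 at 24 h, Mutyh from -0.071 to 0.47 at 24 h, and Apex1 from -0.049 to 0.19 at 12 h and from -0.0059 to 0.23 at 24 h. Between the models Neil1 ranged from -0.12 to 0.12 at 3 h, and Tdg from -0.097 to 0.16 at 3 h and from -0.096 to 0.24 at 24 h.

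Mouse numbers are shared between groups but are not said to pair the mice. Correlations of same-numbered deviations ranged from -0.50 to 0.53. They were not set against those of mice with different numbers, so they do not decide whether the numbers pair mice. With the number as a replicate block Mutyh in RM-9 at 24 h turned to 0.0078, the count in MC-38 at 12 h was 6 (5 higher, 1 lower), and the counts at 24 h were those given above. Neil2 (at most 21 estimated reads per library) and, in RM-9, Neil3 (35 to 90 reads), Mutyh (48 to 97) and Neil1 (59 to 110) are limited by depth, so small changes in them were not detectable.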
